A study of Mus musculus with 6 samples.

Results

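The canonical Wnt pathway was examined in hematopoietic stem cells through 10 genes: the receptors Fzd7 and Fzd4, the co-receptor Lrp6, the destruction complex scaffolds Axin1 and Apc, the kinases Gsk3b and Csnk1a1, beta-catenin itself (Ctnnb1), and its nuclear partners Bcl9 and Tcf7l2. Every probe set whose only annotated gene symbol was one of these 10 was taken, which gave 33 of the 45037 non-control probe sets, or 10 of 18193 annotated genes. Donor animals were male C57Bl/6 (CD45.1) mice aged 10 weeks, and their marrow cells were sorted as Lineage-, Sca-1+ and c-Kit+ cells of the side population, which is defined by export of a DNA-binding dye. They were split by position in that gate into Lower-SP and Upper-SP, from mice of the same strain, sex and age, with no treatment of the animals named. Each fraction had 3 arrays, 1 for each biological replicate, the mice of a replicate being pooled. The values are the authors' log2 expression values, and every difference below is Lower-SP minus Upper-SP on that log2 scale.

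In the absence of a Wnt ligand, beta-catenin is held by Axin and APC, phosphorylated first by casein kinase 1 alpha and then by GSK3, and degraded. When a Wnt protein bridges a Frizzled receptor and LRP5 or LRP6, this complex is recruited to the membrane, beta-catenin accumulates, enters the nucleus and binds TCF/LEF factors, where BCL9 links it to Pygopus and transcription. In blood-forming cells the pathway has been studied for its part in self-renewal, and its output is known to depend on dose. Most of these steps act on protein stability and location, which an mRNA array does not measure.

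The 10 genes did not move together. The Wnt receptor Fzd7 and the beta-catenin cofactor Bcl9 were lower in Lower-SP cells by 1.45 and 1.46 log2 units (SE 0.22 and 0.24, n = 3 arrays in each fraction), or 2.73-fold and 2.76-fold. Beta-catenin mRNA itself differed by 0.01 (SE 0.10) on its brightest probe set. For Gsk3b, 2 of 5 tested probe sets were higher in Lower-SP and the other 3 did not pass, while 1 probe set each of Csnk1a1 and Tcf7l2 was lower.

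A probe set was tested where 3 or more of the 6 arrays lay above log2 4, which held for 21 of the 33, with at least 1 for each of the 10 genes. Of the 12 others, 10 lay under log2 4 on every array. Of the 21 tested, 2 were called higher and 4 lower in Lower-SP at an adjusted p under 0.05 (limma, Benjamini-Hochberg over all 19613 tested probe sets). Over all tested probe sets 28.1% were called, 10.7% higher and 17.5% lower, so the share of calls among these genes is near the background. The counts were 1 higher and 2 lower with any of Lower-SP replicate 1, Lower-SP replicate 2 or Upper-SP replicate 3 left out, 0 and 2 with either of the other Upper-SP arrays left out, and 3 and 5 with Lower-SP replicate 3 left out. The 2 calls kept in every such omission were those of Fzd7 and Bcl9. The groups did not overlap for 8 of the 21, against 46.1% of all tested probe sets. The 21 differences had a median of -0.16, and those of all tested probe sets -0.14. The 15 that did not pass ran from -0.59 to 0.71.

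**Figure D1:**
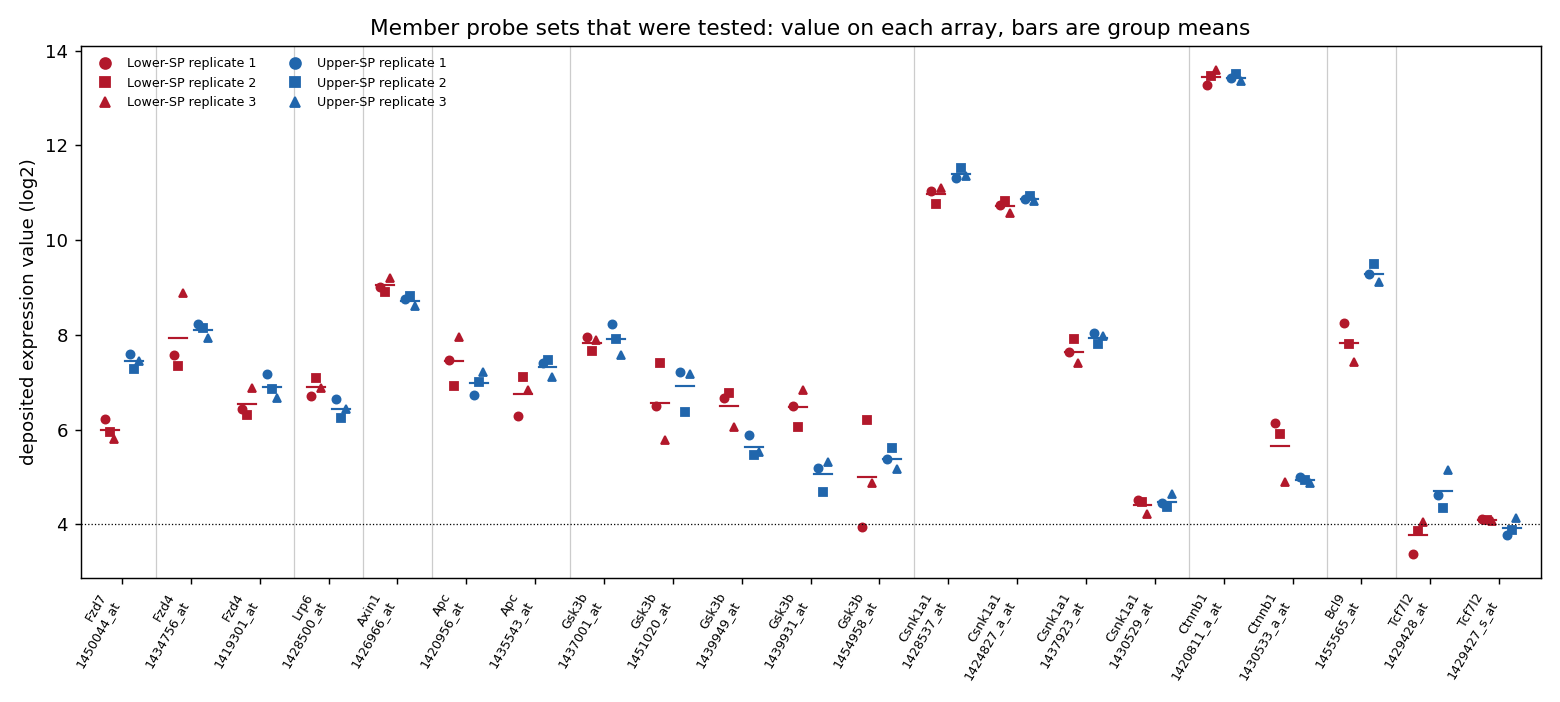
Log2 expression value on each array (y axis) for the 21 tested probe sets of the 10 genes (x axis); red symbols are Lower-SP and blue symbols Upper-SP, the shape gives the replicate, short bars are group means and the dotted line is log2 4. The 3 Lower-SP arrays lie under the 3 Upper-SP arrays for Fzd7 and Bcl9, and the arrays of both fractions mix for Ctnnb1 1420811_a_at.

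Some properties of the arrays bear on every value. Between 19317 and 19666 probe sets lay above log2 4 on each array, the correlation of 2 arrays across probe sets was 0.952 to 0.991 in the same fraction and 0.911 to 0.938 in different fractions, and no 2 arrays were identical. Of 6 matched stem and progenitor markers all lay above log2 4, and Kit and Cd34 were called lower in Lower-SP. Neutrophil transcripts differed between the arrays. Over 9 markers the mean was 8.67, 8.11 and 5.14 on Lower-SP replicates 1, 2 and 3. It was 4.74, 4.99 and 3.85 on Upper-SP replicates 1, 2 and 3 (summed level 46.3 to 78.0 in Lower-SP against 34.6 to 44.9 in Upper-SP). S100a8, S100a9, Chil3 and Lcn2 were called higher. Chil3 and Lcn2 lay above log2 4 on the Lower-SP arrays alone, so they were tested only through the fraction where they were high. With values under log2 4 set to it, their folds were at least 14.35 and 8.80. Ltf, Camp and Ngp, with differences of 2.18, 1.80 and 3.34, overlapped and were not called. On each of them Lower-SP replicate 3 lay below Upper-SP replicates 1 and 2. Elane, under log2 4 on every array, and Mpo were not tested. Over 5 plasma cell markers the mean was 5.62, 5.59 and 4.19 in Lower-SP and 6.37, 6.52 and 6.18 in Upper-SP (summed level 20.9 to 28.1 against 30.9 to 32.6), with Igha called lower and with Mzb1 and Tnfrsf17 under log2 4 throughout. The defining markers Cd79a and Pax5 of B cells, Cd3e and Cd3g of T cells, and Cdh5, Pecam1 and Col1a1 of endothelium and stroma lay under log2 4 on every array. Others of these lists did not: Cd79b of B cells (difference -0.37) and Cxcl12 of stroma (-0.23) lay above it on all 6 arrays without a call, Nkg7 of NK cells lay above it on all 6 and was called lower (-1.14, limma adjusted p = 0.0327), and Ms4a1, Cd247 and Kdr lay above it on some arrays. The 3' minus 5' signal of Actb was 7.06 to 7.68 in Lower-SP and 7.22 to 7.58 in Upper-SP, and that of Gapdh 6.29 to 6.96 and 5.90 to 6.25. The RNA had been amplified by repeated in vitro transcription, which shortens transcripts from the 5' end. Because these are bulk samples, fewer cells of a type and less RNA per cell cannot be told apart.

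Promoter sequence from RefSeq (build GRCm38.p6) was matched for 6 of the 10 genes (Fzd7, Fzd4, Gsk3b, Ctnnb1, Bcl9 and Tcf7l2), with 8 windows of 250 bases before an annotated transcription start. The windows of Fzd7 (chr1:59481897-59482146, plus strand) and Bcl9 (chr3:97227365-97227614, minus strand) are shown because these genes had the largest decreases among the 10. Each is written 5' to 3' along its gene and ends at the base before the start, and capitals mark GGGCGG, the core of a GC box, or CCAAT, on either strand.
Fzd7: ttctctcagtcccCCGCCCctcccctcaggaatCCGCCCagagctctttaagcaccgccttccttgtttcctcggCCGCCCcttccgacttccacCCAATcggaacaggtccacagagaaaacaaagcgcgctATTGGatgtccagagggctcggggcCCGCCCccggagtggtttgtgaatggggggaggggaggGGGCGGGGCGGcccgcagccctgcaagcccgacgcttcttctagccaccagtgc
Bcl9: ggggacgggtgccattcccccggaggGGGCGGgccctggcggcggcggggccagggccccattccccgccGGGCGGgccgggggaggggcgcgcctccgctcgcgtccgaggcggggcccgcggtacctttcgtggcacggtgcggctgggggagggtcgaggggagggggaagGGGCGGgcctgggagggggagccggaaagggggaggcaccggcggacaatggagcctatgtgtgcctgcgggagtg
The Fzd7 window has 65.2% G or C, 17 CpG dinucleotides, 6 copies of GGGCGG (2 of them sharing a base) and 2 of CCAAT. The Bcl9 window has 79.2% G or C, 28 CpG dinucleotides, 3 copies of GGGCGG and 0 of CCAAT. Over the 32851 windows of the table the median was 52.4% G or C and 6 CpG dinucleotides. GGGCGG was found in 6 and CCAAT in 4 of the 8 windows of these genes, against 32.7% and 33.8% of all windows. The windows of Ctnnb1 overlap, and each GGGCGG of the second also lies in the first. The TCF/LEF recognition letters CTTTGAT or CTTTGAA, searched on both strands, were in 0 of the 8 windows and in 7.48% of all windows. A match is only a match of letters, and its absence says only that these letters are not in these windows.

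Among the receptors, Fzd7, a Frizzled that binds Wnt ligands through its extracellular cysteine-rich domain, was lower in Lower-SP. Its probe set 1450044_at read 6.22, 5.96 and 5.80 on Lower-SP replicates 1, 2 and 3 and 7.59, 7.28 and 7.46 on Upper-SP replicates 1, 2 and 3. All 3 Lower-SP arrays lay below all 3 Upper-SP arrays. The means were 6.00 ± 0.21 and 7.45 ± 0.16 (SD, n = 3), and the difference was -1.45 (SE 0.22, 95% interval -1.96 to -0.93, limma adjusted p = 0.00502). This call was made under all 15 alternative settings. The difference was -1.64 with the 2 arrays richest in neutrophil transcripts left out, which leaves 1 Lower-SP array. On that array, Lower-SP replicate 3, the plasma cell marker Igha read 4.70, against 9.40 and 8.99 on Lower-SP replicates 1 and 2. The parts of neutrophil and plasma cell RNA in the Fzd7 result were not tested. The other Fzd7 probe set lay under log2 4 on every array.

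Fzd4, a Frizzled that also serves as the receptor for norrin, did not pass on either tested probe set. Probe set 1434756_at read 7.58, 7.34 and 8.88 in Lower-SP and 8.23, 8.14 and 7.94 in Upper-SP, a difference of -0.17 (SE 0.38, 95% interval -1.06 to 0.72, limma adjusted p = 0.766). Lower-SP replicate 3 was the highest of the 6 arrays and the other 2 Lower-SP arrays were the lowest. Without Lower-SP replicate 3 the difference was -0.64 and was called (adjusted p = 0.0454). It was 0.77 when Lower-SP replicates 1 and 2 were both left out (adjusted p = 0.0879). Neutrophil markers were highest on those 2 arrays, and their part in the result was not tested. Probe set 1419301_at read 6.43, 6.32 and 6.88 against 7.18, 6.87 and 6.66, a difference of -0.36 (SE 0.25, adjusted p = 0.318), with overlapping groups. The remaining probe set, 1449416_at, was above log2 4 on Lower-SP replicate 3 alone, at 4.21, and was not tested.

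Lrp6, the co-receptor whose phosphorylated tail docks Axin, read 6.72, 7.10 and 6.87 in Lower-SP and 6.65, 6.24 and 6.44 in Upper-SP on 1428500_at. Each Lower-SP array was above each Upper-SP array, but the difference of 0.45 did not pass (SE 0.23, 95% interval -0.07 to 0.98, limma adjusted p = 0.167), nor did it under any of the 15 alternatives. The other Lrp6 probe set lay under log2 4 on all arrays.

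Neither scaffold of the destruction complex passed. Axin1, the scaffold that is limiting for assembly of the complex, read 9.02, 8.91 and 9.21 in Lower-SP and 8.76, 8.82 and 8.60 in Upper-SP on 1426966_at. Those groups did not overlap, and the difference was 0.32 (SE 0.16, 95% interval -0.06 to 0.70, limma adjusted p = 0.178). It reached 0.49 and was called (adjusted p = 0.0469) when the arrays were rescaled by cyclic loess, and under no other alternative. Apc, the tumour suppressor that binds both Axin and beta-catenin, gave opposite signs on its tested probe sets. On 1420956_at it read 7.46, 6.92 and 7.96 in Lower-SP and 6.74, 7.02 and 7.21 in Upper-SP, a difference of 0.46 (SE 0.30, 95% interval -0.24 to 1.16, adjusted p = 0.281). On 1435543_at it read 6.29, 7.12 and 6.83 against 7.41, 7.47 and 7.12, a difference of -0.59 (SE 0.27, 95% interval -1.21 to 0.03, adjusted p = 0.137). Both sets overlapped between the fractions, and both intervals include 0. The other 2 Apc probe sets, and the other Axin1 probe set, lay under log2 4 on every array.

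The kinases of the complex were read by several probe sets each, and for each gene some were called and others not. The tested Csnk1a1 differences all lay below 0, and those of Gsk3b had both signs. Gsk3b, which phosphorylates the beta-catenin degron, was higher in Lower-SP on 1439931_at, at 6.51, 6.07 and 6.84 against 5.20, 4.68 and 5.33. The groups did not overlap, with a difference of 1.40 (SE 0.29, 95% interval 0.72 to 2.08, 2.64-fold, limma adjusted p = 0.0127). The call was made under 13 of 15 alternatives and missed on omission of Upper-SP replicate 1 (adjusted p = 0.0560) or of Upper-SP replicate 2 (adjusted p = 0.0510). With both Lower-SP arrays rich in neutrophil transcripts left out, which leaves 1 Lower-SP array, the difference was 1.77. Probe set 1439949_at read 6.67, 6.78 and 6.06 in Lower-SP and 5.89, 5.46 and 5.54 in Upper-SP, a difference of 0.87 (SE 0.27, 95% interval 0.24 to 1.51, 1.83-fold, adjusted p = 0.0474). Its higher readings were those of Lower-SP replicates 1 and 2, the arrays with neutrophil marker means of 8.67 and 8.11. Lower-SP replicate 3, at 6.06, also lay above each Upper-SP array. The part of neutrophil RNA was not tested. Without Lower-SP replicates 1 and 2, which leaves 1 Lower-SP array, the difference was 0.43. The call was made under 7 of 15 alternatives and under 1 of the 6 omissions of an array, that of Lower-SP replicate 3.

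The brightest Gsk3b probe set gave no call. It, 1437001_at, read 7.96, 7.67 and 7.89 in Lower-SP and 8.24, 7.91 and 7.58 in Upper-SP, a difference of -0.07 (SE 0.22, 95% interval -0.59 to 0.45, limma adjusted p = 0.833) whose sign turned under cyclic loess (0.07) and median centring (0.02). On 1451020_at the readings were 6.51, 7.41 and 5.78 against 7.23, 6.38 and 7.18 (difference -0.36, SE 0.44, adjusted p = 0.558). On 1454958_at they were 3.94, 6.20 and 4.88 against 5.38, 5.62 and 5.18 (difference -0.39, SE 0.52, adjusted p = 0.605). The Lower-SP arrays spread over more than the distance between the fractions on both. A sixth probe set lay under log2 4 on every array. A rise of Gsk3b mRNA as a whole is therefore not shown: it holds for 2 of its 5 tested probe sets.

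Csnk1a1, casein kinase 1 alpha, which places the priming phosphate on beta-catenin, was lower in Lower-SP on its brightest probe set by a small amount. Probe set 1428537_at read 11.05, 10.77 and 11.09 in Lower-SP and 11.32, 11.52 and 11.35 in Upper-SP, without overlap. The difference was -0.43 (SE 0.13, 95% interval -0.74 to -0.12, 1.34-fold, limma adjusted p = 0.0467). It passed under 4 of 15 alternatives and under 1 of the 6 omissions of an array, that of Lower-SP replicate 3. Rescaling moved it to -0.23 (cyclic loess, adjusted p = 0.200) or -0.34 (median centring, adjusted p = 0.0882). Probe set 1424827_a_at read 10.74, 10.83 and 10.57 against 10.86, 10.94 and 10.82, a difference of -0.16 (SE 0.12, adjusted p = 0.357) that cyclic loess turned to 0.03. The difference was -0.30 on 1437923_at (SE 0.21, adjusted p = 0.313) and -0.08 on 1430529_at (SE 0.20, adjusted p = 0.797), where median centring turned it to 0.01. A further probe set lay under log2 4.

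Ctnnb1, which encodes beta-catenin, the transcriptional effector of the pathway and a part of cadherin junctions, had near-equal values in both fractions on its brightest probe set. Probe set 1420811_a_at read 13.28, 13.47 and 13.59 in Lower-SP and 13.43, 13.51 and 13.35 in Upper-SP. The means were 13.45 ± 0.16 and 13.43 ± 0.08 (SD, n = 3), and the difference of 0.01 (SE 0.10, limma adjusted p = 0.928) had a 95% interval of -0.22 to 0.25. Under the alternatives it ran from -0.06 to 0.21 and was never called. Probe set 1430533_a_at read 6.14, 5.91 and 4.90 against 5.01, 4.93 and 4.87, a difference of 0.71 (SE 0.34, 95% interval -0.07 to 1.49, adjusted p = 0.151). Only Lower-SP replicates 1 and 2 stood above the other arrays on it. Those 2 had neutrophil marker means of 8.67 and 8.11 against 5.14 on Lower-SP replicate 3, and the part of neutrophil RNA in this result was not tested. The difference was 1.09 and called when Lower-SP replicate 3 was left out (adjusted p = 0.0108), and -0.04 when replicates 1 and 2 were (adjusted p = 0.933). The remaining probe set, 1450008_a_at, read 3.28, 3.33 and 3.54 in Lower-SP and 4.34, 4.16 and 3.69 in Upper-SP. It passed log2 4 on 2 Upper-SP arrays and was not tested.

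Over the 6 arrays, the genes whose representative probe set followed Ctnnb1 1420811_a_at most closely, among 9459 compared, were Gucy1a1 (Pearson r = 0.976), 2810013P06Rik (r = 0.954) and Gnat2 (r = 0.952). These correlations are descriptions over 6 arrays that share their scaling.

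Bcl9, the adaptor that joins beta-catenin to the chromatin reader Pygopus, was lower in Lower-SP on its 1 tested probe set. 1455565_at read 8.26, 7.80 and 7.43 on Lower-SP replicates 1, 2 and 3 and 9.28, 9.50 and 9.11 on Upper-SP replicates 1, 2 and 3. No Lower-SP array came within the Upper-SP range. The means were 7.83 ± 0.42 and 9.29 ± 0.19 (SD, n = 3), a difference of -1.46 (SE 0.24, 95% interval -2.03 to -0.90, limma adjusted p = 0.00630). The call was made under all 15 alternatives, with differences of -1.87 to -1.26. It was -1.87 with Lower-SP replicates 1 and 2, the arrays with the highest neutrophil marker means, both left out, which leaves 1 Lower-SP array. The plasma cell markers Igha and Jchain were, like Fzd7 and Bcl9, lower on each Lower-SP array than on each Upper-SP array. Groups did not overlap, in either direction, for 46.1% of all tested probe sets. Igha and Jchain were also, like Fzd7 and Bcl9, lowest on Lower-SP replicate 3. Sdc1 differed by -0.07 with overlap, and Mzb1 and Tnfrsf17 lay under log2 4 on every array. The parts of plasma cell and neutrophil RNA were not tested. The other Bcl9 probe set lay under log2 4 on every array.

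Tcf7l2, a TCF/LEF factor that binds DNA and recruits beta-catenin, was measured near the floor. Probe set 1429428_at read 3.38, 3.87 and 4.06 in Lower-SP and 4.63, 4.36 and 5.15 in Upper-SP. The groups did not overlap, and the difference was -0.94 (SE 0.28, 95% interval -1.60 to -0.29, limma adjusted p = 0.0420). Since the Lower-SP mean lay under log2 4, the fold is given as a bound, with values under log2 4 set to it: at least 1.62-fold lower. The call was made under 6 of the 14 alternatives that tested it, and under 1 of the 6 omissions of an array, that of Lower-SP replicate 3. Probe set 1429427_s_at read 4.12, 4.09 and 4.08 against 3.79, 3.88 and 4.14, a difference of 0.16 (SE 0.19, adjusted p = 0.553). The other 2 Tcf7l2 probe sets lay under log2 4 on every array.

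**Figure D2:**
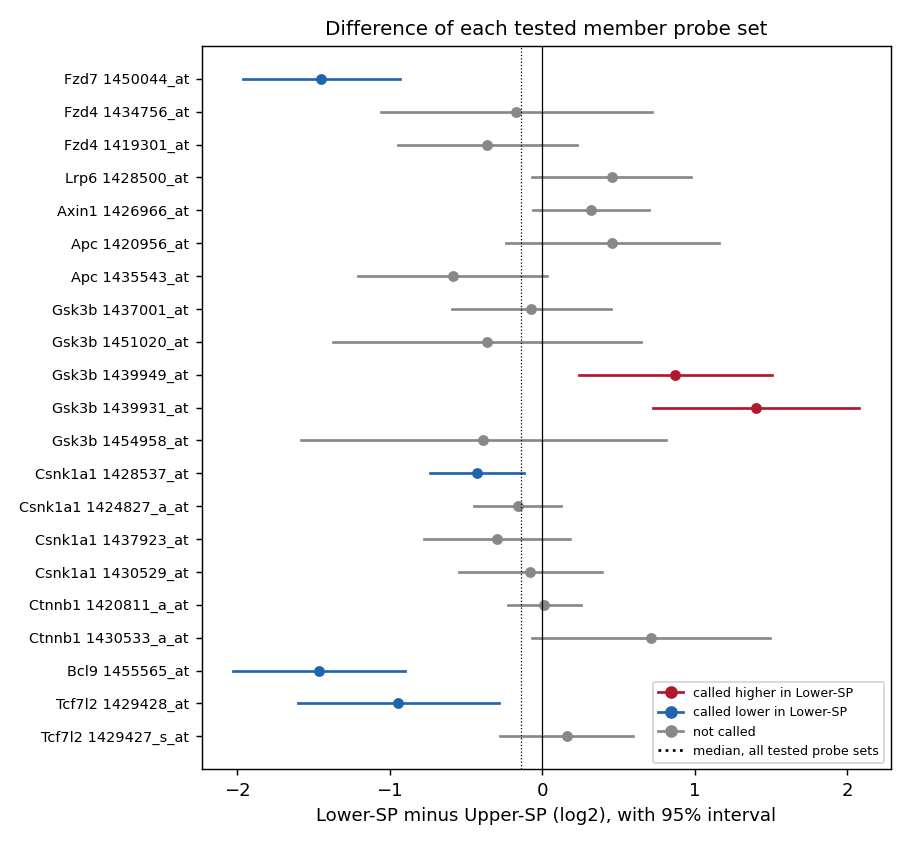
Lower-SP minus Upper-SP difference on the log2 scale (x axis) of each of the 21 tested probe sets (y axis) with its 95% interval from limma; red is called higher, blue called lower, grey not called, and the dotted line is the median of all tested probe sets, -0.14. Fzd7 at -1.45 and Bcl9 at -1.46 lie farthest to the left, Gsk3b 1439931_at at 1.40 farthest to the right, and the interval of Ctnnb1 1420811_a_at is -0.22 to 0.25.

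**Figure D3:**
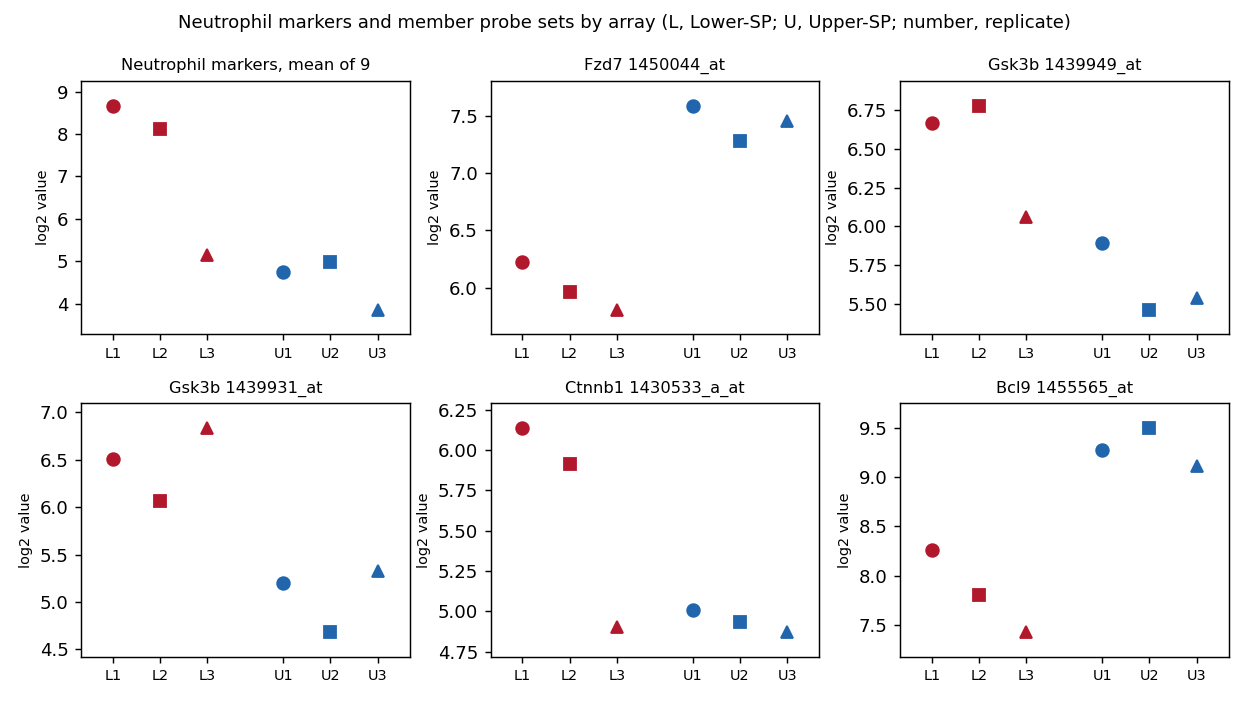
Log2 value on each array (y axis; L, Lower-SP; U, Upper-SP; the number is the replicate) of the mean of 9 neutrophil markers and of 5 probe sets of Ctnnb1, Gsk3b, Fzd7 and Bcl9; each panel has its own scale, which does not start at 0. Ctnnb1 1430533_a_at is high on L1 and L2, where the neutrophil mean is 8.67 and 8.11; the part of neutrophil RNA was not tested. On Fzd7 and Bcl9 each of L1, L2 and L3 lies below each of U1, U2 and U3.

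The other genes of Wnt signalling were read by role, each through its brightest tested probe set. Of 171 listed genes 165 had a probe set annotated with that symbol alone, and 93 were tested. Of these, 9 were called higher and 15 lower in Lower-SP, and the median difference was -0.06. Among the 9, Vangl1 passed the filter only through the Lower-SP arrays. Over all 9460 tested genes 7.05% were called higher and 20.7% lower, and the median was -0.24. Of the 24 calls, 4 survived the omission of Upper-SP replicate 1, 9 that of Upper-SP replicate 2, 9 that of Lower-SP replicate 2 and 14 that of Lower-SP replicate 1, while Camk2a, Csnk1g3 and Tle2 were called under all 15 alternatives. Of the 93 genes, 50 had more than 1 tested probe set, and for 24 of these some were called and others not. The same count was not taken over all tested genes.

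Upstream of the receptors little was detected. Of 21 genes for ligands and their secretion 3 were tested and 0 called by limma, with 1 at an unadjusted p under 0.05. The smallest p among them was that of Wls, the carrier of Wnt proteins to the cell surface, which read 8.23, 7.41 and 7.08 in Lower-SP and 8.40, 8.42 and 8.43 in Upper-SP (difference -0.85, SE 0.30, limma adjusted p = 0.0676). Of 22 other receptors and co-receptors 7 were tested, and the Wnt-binding pseudokinase Ryk was lower at -0.82 (adjusted p = 0.0360), while its other tested probe set differed by 0.01. Ryk kept its call without Lower-SP replicate 3 and lost it without any other single array. Of 16 secreted inhibitors 4 were tested and 0 called by limma, none at an unadjusted p under 0.05, Sfrp2 having the smallest p (difference -0.33, adjusted p = 0.486). Dkk1 and Notum lay under the filter.

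Between receptor and destruction complex the calls ran both ways. Of 9 tested dishevelled and receptor-proximal genes 1 was higher and 3 lower, beside 7.05% higher and 20.7% lower over all tested genes. Csnk1g3, a membrane-bound casein kinase 1 gamma that phosphorylates LRP6, read 8.61, 8.45 and 9.09 in Lower-SP and 6.74, 6.56 and 7.52 in Upper-SP (difference 1.77, SE 0.30, 3.42-fold, limma adjusted p = 0.00684). The other tested Csnk1g3 probe set differed by -0.13 and was not called. Its paralog Csnk1g2 was lower by -1.28 (adjusted p = 0.00927), as was the GSK3-binding protein Frat2 by -0.78 (adjusted p = 0.0137). The remaining call, named after its value was seen, was Dvl1 at -0.31 (adjusted p = 0.0456), whose other tested probe set was lower by -1.62 (adjusted p = 0.00612). Csnk1g2 lost its call without Upper-SP replicate 1, Frat2 also without Upper-SP replicate 2 or Lower-SP replicate 2, and Dvl1 on the omission of any 1 of the 6 arrays.

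Of 17 other tested genes of the destruction complex and of beta-catenin turnover, 3 were higher and 1 lower, with a median of 0.09. Over all tested genes 7.05% were higher and 20.7% lower, with a median of -0.24. The phosphatase subunit Ppp2r5e was higher by 1.49 (SE 0.28, limma adjusted p = 0.00921), although another of its probe sets was called lower at -0.82. Ppp2r5c, another regulatory subunit of that phosphatase, was lower by -1.04 (adjusted p = 0.00884), and its 5 other tested probe sets were not called. Fbxw11, the ubiquitin ligase subunit that recognises phosphorylated beta-catenin, was higher by 1.03 (SE 0.22, adjusted p = 0.0134), while its 3 other tested probe sets, from 0.33 to 1.05, were not called. Siah1a, named after its value was seen, was higher by 0.69. All 4 calls were lost without Upper-SP replicate 1, those of Fbxw11 and Siah1a also without Lower-SP replicate 2, and that of Siah1a also without Upper-SP replicate 2.

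Of 23 other tested nuclear genes 6 were lower and 1 higher, near the 20.7% lower over all tested genes, and their median was -0.36 against -0.24 over all tested genes. The corepressor Tle2 was lower, at 9.87, 9.68 and 10.04 against 11.33, 11.34 and 10.94 (difference -1.34, SE 0.16, 2.54-fold, limma adjusted p = 0.00288). Its relative Tle3 was higher by 0.80 (adjusted p = 0.0285), and Tbl1xr1, a subunit of the nuclear receptor corepressor complex, was lower by -0.76 (adjusted p = 0.0200). Tle2 was called without each array in turn, while Tle3 and Tbl1xr1 were not called without Upper-SP replicate 1, nor Tle3 without Lower-SP replicate 1 or Upper-SP replicate 2, nor Tbl1xr1 without Lower-SP replicate 2. The other tested probe sets of Tle3 (0.11) and Tbl1xr1 (-0.03) were not called. After cyclic loess the nuclear list had 2 genes higher and 4 lower with a median of -0.17, and with Lower-SP replicates 1 and 2 both left out 1 higher and 2 lower with a median of -0.12.

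Of 9 tested target genes 1 was called, where over all tested genes 7.05% were called higher and 20.7% lower. Cyclin D1 (Ccnd1) was lower by -0.88 (SE 0.21, limma adjusted p = 0.0209), its other probe sets differing by 0.30 and -0.11, and the call was lost without Lower-SP replicate 1, Lower-SP replicate 2, Upper-SP replicate 1 or Upper-SP replicate 2. The feedback targets Axin2, Nkd1, Sp5 and Lgr5, and the TCF/LEF gene Lef1, lay under the filter, so no level of pathway output can be read from them on these arrays. Of 4 tested cadherin and catenin genes, the alpha-catenin-like Ctnnal1 was higher by 1.44 (adjusted p = 0.0246) and p120 catenin, Ctnnd1, lower by -1.09 (adjusted p = 0.0265). Ctnnal1 read 7.17, 7.62 and 6.17 on the Lower-SP arrays, highest on those rich in neutrophil transcripts, whose part was not tested. Its call was kept without Lower-SP replicate 3 and lost without any other single array, and that of Ctnnd1 was lost without Lower-SP replicate 2, Upper-SP replicate 1 or Upper-SP replicate 2.

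In the beta-catenin-independent arm 3 of 19 tested genes were higher and 2 lower, beside 7.05% higher and 20.7% lower over all tested genes. Of the 3, Vangl1, named after its value was seen, passed the filter only through the Lower-SP arrays, so its call adds no support. Its difference was 0.72. With values under log2 4 set to it, that was 0.13 and not called (limma adjusted p = 0.522). The calcium-dependent kinase Camk2a was lower, at 5.25, 4.32 and 4.83 against 7.48, 7.22 and 6.95 (difference -2.42, SE 0.30, 5.34-fold, limma adjusted p = 0.00295), and its other tested probe set was also called lower, at -1.29. Camk2d read 6.06, 6.40 and 4.19 against 3.31, 3.81 and 4.17, called higher (adjusted p = 0.0465), with Lower-SP replicate 3 near the Upper-SP arrays and the Upper-SP mean under log2 4. With values under log2 4 set to it the fold was at least 2.82 and was not called (adjusted p = 0.0624), and the call was made under 3 of 14 alternatives. Its high arrays, Lower-SP replicates 1 and 2, were those rich in neutrophil transcripts, whose part was not tested. Without both the difference was 0.43 (adjusted p = 0.475), and the 2 other tested Camk2d probe sets (0.36 and -0.03) were not called. The cytoskeletal kinase Rock1 was higher by 0.92 (adjusted p = 0.0246), as was 1 of its 4 other tested probe sets, while the remaining 3, from -0.31 to 1.15, were not called. Rock1 and Camk2d lost their calls without Lower-SP replicate 1, Lower-SP replicate 2, Upper-SP replicate 1 or Upper-SP replicate 2, and Camk2d also without Upper-SP replicate 3.

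**Figure D4:**
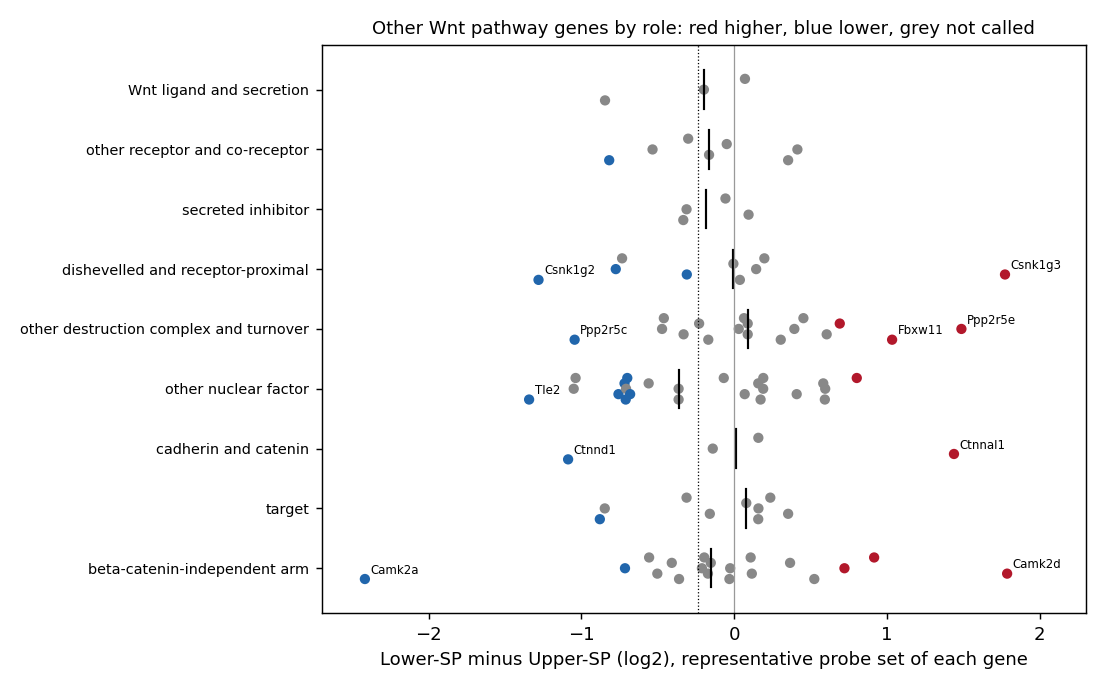
Lower-SP minus Upper-SP difference on the log2 scale (x axis) of each tested Wnt pathway gene outside the 10, by role (y axis); red is called higher, blue called lower, grey not called, black bars are the medians of the lists, and the dotted line is the median of all tested genes, -0.24. Camk2a lies farthest to the left, at -2.42, Csnk1g3 lies at 1.77, the point of Camk2d is drawn at its measured difference although its Upper-SP mean is under log2 4, and the median of the nuclear list is -0.36.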

How the data were processed

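Lower-SP and Upper-SP cells were measured on 3 Affymetrix mouse arrays each. The deposited table holds log2 expression values that the authors summarised with GCRMA (a sequence-based background correction, normalisation between arrays and summary of the probes in each set), with GCOS 1.0 also named, per the submitters' processing notes; parameters and genome build are not given in the sources used here. Arrays have no depth: their number limits the precision.

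Of 45101 probe sets, 64 controls were left out. Symbols came from the platform annotation, and all 33 probe sets of the 10 genes matched current gene records by Entrez ID. Fractions were compared over 6 arrays with limma 3.58.1 in R 4.3.3 (lmFit, eBayes with trend, two-sided, residual df 4, prior df 3.80), and p-values were adjusted by Benjamini-Hochberg over 19613 tested probe sets; the fit was tested on simulated data. The labels call the arrays biological replicates of pools sorted on separate days. Other genes were read through their brightest tested probe set. Named were all members, up to 3 called genes of each list with the largest difference, or else that with the smallest p, and the 3 genes most like Ctnnb1. The 10 genes and all lists were chosen with earlier results of these data known. Alternatives were a filter at log2 6 or none, a floor at log2 4, cyclic loess, median centring, no trend, a replicate block, no _x_at or _s_at probe sets, and each array left out; for the lists also the probe set with the smallest p. Leaving out both Lower-SP replicates 1 and 2, which leaves 1 Lower-SP array, was added after seeing the data. The labels do not say that a replicate number marks a day, so the numbers were not taken as pairs. Deviations of same-numbered arrays from their group means correlated at -0.051, -0.029 and -0.023. Tcf7 and Ly6a were not analysed here.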

Additional observations from a re-analysis of the deposited data

How the results depend on the processing

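Counts of calls depended on the arrays and the filter more than the differences did. Against 2090 probe sets higher and 3430 lower, 2 and 4 of the 10 genes' probe sets and 9 and 15 other Wnt genes, the counts were 1252 and 1679, 1 and 2, and 4 and 6 with no filter, and 1191 and 1524, 1 and 2, and 4 and 8 without Lower-SP replicates 1 and 2, a setting chosen after seeing the data. With each array left out they ran from 885 to 2455, 781 to 3942, 0 to 3, 2 to 5, 1 to 12 and 3 to 16, with the lowest counts over all probe sets without Upper-SP replicate 1 and the highest without Lower-SP replicate 3; the omission of any array but Lower-SP replicate 3 moved at least 1 of these counts by over 1.5 times. With the replicate number as a block they were 1680 and 2500, 1 and 3, and 6 and 10. Median centring left 2 of the 10 genes' probe sets lower, and the probe set with the smallest p for each gene gave 17 other Wnt genes higher. Cyclic loess raised the share of higher among called probe sets from 37.9% to 51.5% and moved the median of all tested probe sets from -0.14 to -0.03; median centring gave 45.7% and -0.05. Of the list medians, computed under 3 alternatives, that of the beta-catenin-independent arm changed sign under cyclic loess (0.03) and that of the dishevelled list under median centring (0.08). Without Lower-SP replicates 1 and 2 the medians changed sign for other receptors (0.075), secreted inhibitors (0.22), the dishevelled list (0.0063) and the beta-catenin-independent arm (0.063). Of 309 alternative values of the 21 probe sets 261 kept direction and side of the threshold, 29 lost the call, 3 gained one and 16 changed sign; none of the sign changes was in a called probe set. They were Gsk3b 1437001_at (0.070 under cyclic loess, 0.017 under median centring, -0.24 to 0.092 over omissions of 1 array), Csnk1a1 1424827_a_at (0.035 under cyclic loess), Csnk1a1 1430529_at (0.010 under median centring, -0.14 to 0.0135 over omissions), Fzd4 1434756_at (-0.64 to 0.13 over omissions, 0.77 without Lower-SP replicates 1 and 2), Gsk3b 1454958_at (-0.98 to 0.15), Gsk3b 1451020_at (-0.79 to 0.029), Ctnnb1 1420811_a_at (-0.056 to 0.098) and, without Lower-SP replicates 1 and 2, Ctnnb1 1430533_a_at (-0.038). The causes of these shifts were not tested. The setting with no filter tests more probe sets, and an omission uses fewer arrays. Probe sets near log2 4, such as those of Tcf7l2, have little signal over background.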

Other observations

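For some nuclear genes, the brightest tested probe set was not called while others of the same gene were. Chd8, a chromatin helicase that binds beta-catenin, differed by 0.17 on its brightest probe set (limma adjusted p = 0.408). Its probe set 1457712_at read 9.29, 8.99 and 8.80 in Lower-SP and 6.46, 6.27 and 7.15 in Upper-SP (difference 2.40, SE 0.27, adjusted p = 0.00242). The groups of 1457712_at did not overlap. On 1457580_at it read 4.69, 4.73 and 5.42 against 2.93, 3.16 and 2.82. The Upper-SP arrays lay under log2 4, so the fold is a bound, at least 1.93-fold higher. Probe set 1457580_at passed the filter only through the 3 Lower-SP arrays, so its call and its lack of overlap add no support. The acetyltransferase and coactivator Crebbp behaved alike in part: 0.41 on its brightest probe set (adjusted p = 0.0708), 1.01 on 1434633_at (adjusted p = 0.0347), at least 2.87-fold higher on 1459804_at, where the Upper-SP mean lay under log2 4 (adjusted p = 0.0117), and -0.59 on 1435224_at (adjusted p = 0.0535). Nlk, a kinase that phosphorylates TCF/LEF factors, had 1 probe set lower by -1.11 (adjusted p = 0.0137) and 1 higher by 0.90 (adjusted p = 0.0385). Over the 93 tested Wnt genes, 13 had a brightest probe set that was not called beside another that was, and 3 had probe sets called in both directions. Among the 10 genes the first held for Gsk3b and the second for none. The same counts were not taken over all tested genes, and 28.1% of all tested probe sets were called. Where the probe sets lie on their transcripts was not determined, so a difference of the gene as a whole is not shown. Chd8, Crebbp and Nlk were named after their values were seen.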
